A study of Mus musculus with 43 samples.

Results

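Sfrp5 and 7 other genes linked to fat expansion or to the extracellular matrix of fat (Mest, Bmp3, Npr3, Wisp2, Thbs2, Prelp and Nedd9) were followed across 4 tissues and 16 groups of mice. The 8 genes were chosen by name because their levels were lower in fat and muscle of several groups than in the control group, and each is 1 of the 42349 entries of the expression table. Their values in inguinal white adipose tissue (WAT) and skeletal muscle chose them, so those values are given as a description, while the comparisons within brain and within liver were tested. All mice were females of 15 months. WT mice were Irs1+/+, KO mice carried the global Irs1-/- deletion, and each genotype was either fed ad libitum (AL) or held on 30% dietary restriction (DR) for 12 months, giving the groups WTAL, KOAL, WTDR and KODR. The deletion is in every cell of the KO mice, so it is not specific to fat. PolyA RNA from brain, liver, skeletal muscle and inguinal WAT was sequenced on an Ion Proton instrument, in 43 labelled libraries with 2 or 3 per group. WTAL has 2 libraries in each tissue, and WTDR is labelled with 2 in WAT.

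White fat grows by the filling of existing adipocytes and by the formation of further ones from precursor cells, and both need the surrounding collagen matrix to be remodelled. Wnt ligands hold precursor cells back from adipocyte formation, and BMP ligands steer them towards or away from it, while secreted proteins such as SFRP5 bind Wnt ligands outside the cell. Sfrp5 and Mest are known from mouse fat as genes whose expression follows the growth of the depot, and their level differs widely between mice of 1 inbred strain.

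The deposited table gives 1 value per gene and group. This is an FPKM, a fragment count corrected for the length of the transcript and the size of the library, with a 95% interval set by the authors' software, and differences below are log2 ratios of 2 such values with a standard error (SE) from those intervals. The tissues carried their own markers, with 14 adipocyte markers summing to between 26149 and 53498 FPKM in WAT, 12 skeletal muscle markers to between 145668 and 228023 in muscle, 9 brain markers to between 3788 and 7683 in brain and 10 hepatocyte markers to between 60257 and 142799 in liver. Markers of other tissues were also present. The skeletal muscle markers summed to 529.7, 1436, 465.5 and 785.6 FPKM in WAT of WTAL, KOAL, WTDR and KODR mice, the epithelial markers there to 17.16, 239.4, 26.15 and 125, and the hepatocyte markers in muscle to 21.18, 48.97, 2637 and 108.9. Such sums follow the most abundant genes. Marker by marker, the muscle list in WAT had a median log2 difference from WTAL of 5.35 in KOAL, 4.27 in WTDR and 4.05 in KODR. Of the markers with a value, 11 of 12, 10 of 11 and 11 of 12 were higher than in WTAL, although the WTDR sum was lower. The part of these markers of other tissues in the values below was not tested. Irs1, the deleted gene, was higher in KO than in WT groups in 7 of 8 comparisons within a tissue and diet, with 2.579 to 6.306 in KO and 1.62 to 6.559 in WT groups. The table therefore does not bear out the genotype labels at the level of Irs1 FPKM, and KO below means the group labelled KO. These are whole tissues, so fewer cells of a type and less RNA per cell cannot be told apart.

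The promoters of the genes that the description turns on are shown first, because all 8 genes differ in 1 direction between WTAL and the other groups in fat and muscle, with Sfrp5 and Mest at the lowest shares of WTAL and Thbs2 with its WTAL interval apart in every comparison. RefSeq windows in GRCm38.p6 were found for 6 of the 8 genes. Sfrp5 is on chr19:42197971-42202252 on the minus strand with 3 exons, and its promoter window is chr19:42202253-42202502. Mest is on chr6:30723547-30748465 on the plus strand, and the first 2 of its 3 windows are chr6:30733256-30733505 and chr6:30737800-30738049. Thbs2 is on chr17:14665500-14694235 on the minus strand with 22 exons, and its window is chr17:14694263-14694512. Each sequence holds the 250 bases before a transcript start, read on the strand of the gene, and capitals mark motif matches on either strand.
Sfrp5: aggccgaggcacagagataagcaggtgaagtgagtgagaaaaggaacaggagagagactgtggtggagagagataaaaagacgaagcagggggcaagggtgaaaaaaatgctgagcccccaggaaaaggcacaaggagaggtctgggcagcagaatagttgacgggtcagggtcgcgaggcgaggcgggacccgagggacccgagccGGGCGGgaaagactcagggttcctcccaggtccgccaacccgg
Mest, window 1: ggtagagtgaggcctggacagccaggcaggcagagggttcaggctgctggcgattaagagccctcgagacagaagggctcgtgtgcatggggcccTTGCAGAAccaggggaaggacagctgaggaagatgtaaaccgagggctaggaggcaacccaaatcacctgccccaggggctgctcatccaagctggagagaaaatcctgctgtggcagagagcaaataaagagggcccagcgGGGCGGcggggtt
Mest, window 2: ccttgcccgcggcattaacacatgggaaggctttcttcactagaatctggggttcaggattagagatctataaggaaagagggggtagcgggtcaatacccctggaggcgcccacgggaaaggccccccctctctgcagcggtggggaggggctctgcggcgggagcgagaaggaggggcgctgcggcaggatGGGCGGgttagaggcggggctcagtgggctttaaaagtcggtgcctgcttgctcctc
Thbs2: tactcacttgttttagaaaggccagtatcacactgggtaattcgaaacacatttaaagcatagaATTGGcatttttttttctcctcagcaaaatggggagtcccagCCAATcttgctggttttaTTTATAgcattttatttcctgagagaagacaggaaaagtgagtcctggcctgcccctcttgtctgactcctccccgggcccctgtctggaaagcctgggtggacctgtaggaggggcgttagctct
The motifs searched were the C/EBP core TTGCNNAA, the TCF/LEF core CTTTGAT, the E-box CACGTG, the CCAAT box, the SP1 box GGGCGG and the TATA box TATAAA. Sfrp5 holds 1 SP1 box, whose first base is at -43 from the start, and 13 CpG. Mest holds an SP1 box at -13 in window 1 and at -57 in window 2, and a C/EBP core at -155 in window 1. Thbs2 has 3 CpG, CCAAT boxes at -186 and -144, and a TATA box at -126. The SP1 box is in 32.7% of 32851 promoter windows of the same length, the CCAAT box in 33.8%, the TATA box in 12.4% and the C/EBP core in 9.56%. None of the windows of the 6 genes held the TCF/LEF core (3.21% of all windows) or the E-box (6.02%), which says only that those letters are not in these stretches.

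In WAT, all 8 genes had their highest FPKM in WTAL mice. Sfrp5, which encodes a secreted decoy for Wnt ligands released by adipocytes, had an FPKM of 304.1 in WTAL, 47.67 in KOAL, 6.26 in WTDR and 52.11 in KODR. Its WTAL interval (131 to 477.2) lay above the intervals of the other 3 groups, and WTDR was the lowest. The log2 difference from WTAL was -2.67 (SE 0.55) in KOAL, -5.60 (SE 0.88) in WTDR and -2.54 (SE 0.56) in KODR, so that Sfrp5 stood at 15.7%, 2.06% and 17.1% of the WTAL level. Sfrp5 in KODR was 8.33 times its WTDR level, and those intervals (24.5 to 79.73 and 0 to 13.05) were apart as well.

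Mest, an imprinted gene expressed from the paternal copy, whose product is a membrane protein of the hydrolase fold, was likewise highest in WTAL and lowest in WTDR in WAT, with 391.2, 151.7, 47.58 and 142.7 FPKM in WTAL, KOAL, WTDR and KODR. Its intervals were wide and overlapped in every pair of neighbouring groups, and in WTDR and KODR they reached 0. The difference from WTAL was -1.37 (SE 0.85) in KOAL, -3.04 (SE 1.06) in WTDR and -1.46 (SE 1.26) in KODR. The other members are Bmp3 on chr5:98854439-98880960, Npr3 on chr15:11839896-11905674, Wisp2 on chr2:163820861-163833146, Prelp on chr1:133897199-133921414 and Nedd9 on chr13:41309916-41487320, as the table gives them. The Prelp span also covers Optc on the same strand and Gm15851 opposite, and Nedd9 overlaps the antisense Gm26877. The table's span for Mest, chr6:30723547-30896794, also covers Copg2 on the opposite strand and Mir335 on the same strand, and whether the counting used strand is not given in the sources used here, so reads of such overlapping genes cannot be told apart.

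Bmp3, a BMP family ligand known to oppose the bone-forming BMPs, gave 45.98, 25.69, 17.57 and 16.03 FPKM in WTAL, KOAL, WTDR and KODR. Npr3, the clearance receptor that removes natriuretic peptides, gave 133.2, 47.72, 43.55 and 27.13 in the same order. These genes differed from the other 6 in that KODR, not WTDR, was their lowest group in WAT, but the WTDR intervals of both reached 0 and overlapped those of KODR. Npr3 differed from WTAL by -1.48 (SE 0.60) in KOAL, -1.61 (SE 0.86) in WTDR and -2.30 (SE 0.76) in KODR, and Bmp3 by -0.84 (SE 0.52), -1.39 (SE 0.82) and -1.52 (SE 0.66).

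Among the secreted and matrix proteins, Wisp2, a CCN family protein made by adipose precursor cells (Ccn5 in the reference), had 93.53 FPKM in WTAL, 17.38 in KOAL, 8.516 in WTDR and 33.53 in KODR. Thbs2, a thrombospondin that shapes collagen fibrils and checks the growth of vessels, had 41.63, 16.25, 4.291 and 9.596. Prelp, a small leucine-rich proteoglycan that anchors basement membranes to collagen, was the most abundant of the 8 with 676.5, 179, 98.01 and 196.7. All 3 were lowest in WTDR, at 9.11%, 10.3% and 14.5% of WTAL. Thbs2 was the one gene of the 8 whose WTAL interval lay above that of all the other groups in both WAT and muscle (6 of 6 comparisons, against 5 for Wisp2, 4 each for Npr3 and Nedd9, 3 each for Sfrp5 and Bmp3, 1 for Prelp and 0 for Mest). Its differences from WTAL in WAT were -1.36 (SE 0.44) in KOAL, -3.28 (SE 0.61) in WTDR and -2.12 (SE 0.67) in KODR.

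Nedd9, a scaffold of the Cas family that passes signals from integrins inside the cell, is the one intracellular adaptor among the 8. It had 44.33 FPKM in WTAL, 21.12 in KOAL, 7.932 in WTDR and 13.77 in KODR in WAT. The order was again WTAL, KOAL, KODR and WTDR, with differences from WTAL of -1.07 (SE 0.49), -2.48 (SE 0.79) and -1.69 (SE 0.54) in KOAL, WTDR and KODR.

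Across the 8 genes the median log2 difference from WTAL in WAT was -1.42 in KOAL, -2.91 in WTDR and -1.73 in KODR, where the median of all tested entries was -0.06, -0.17 and -0.04. The WTAL interval lay above the other group's for 3, 4 and 4 of the 8 genes, and the share of all tested entries that were lower in this way was 0.439%, 0.992% and 1.21%. These counts repeat what the choice of genes already fixed. The 3 comparisons share the WTAL group with its 2 libraries, so a high value there lowers all 3. In WTDR, also with 2 labelled libraries in WAT, 7 of the 8 intervals reached 0, against 0 in WTAL, 0 in KOAL and 2 in KODR.

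**Figure D1:**
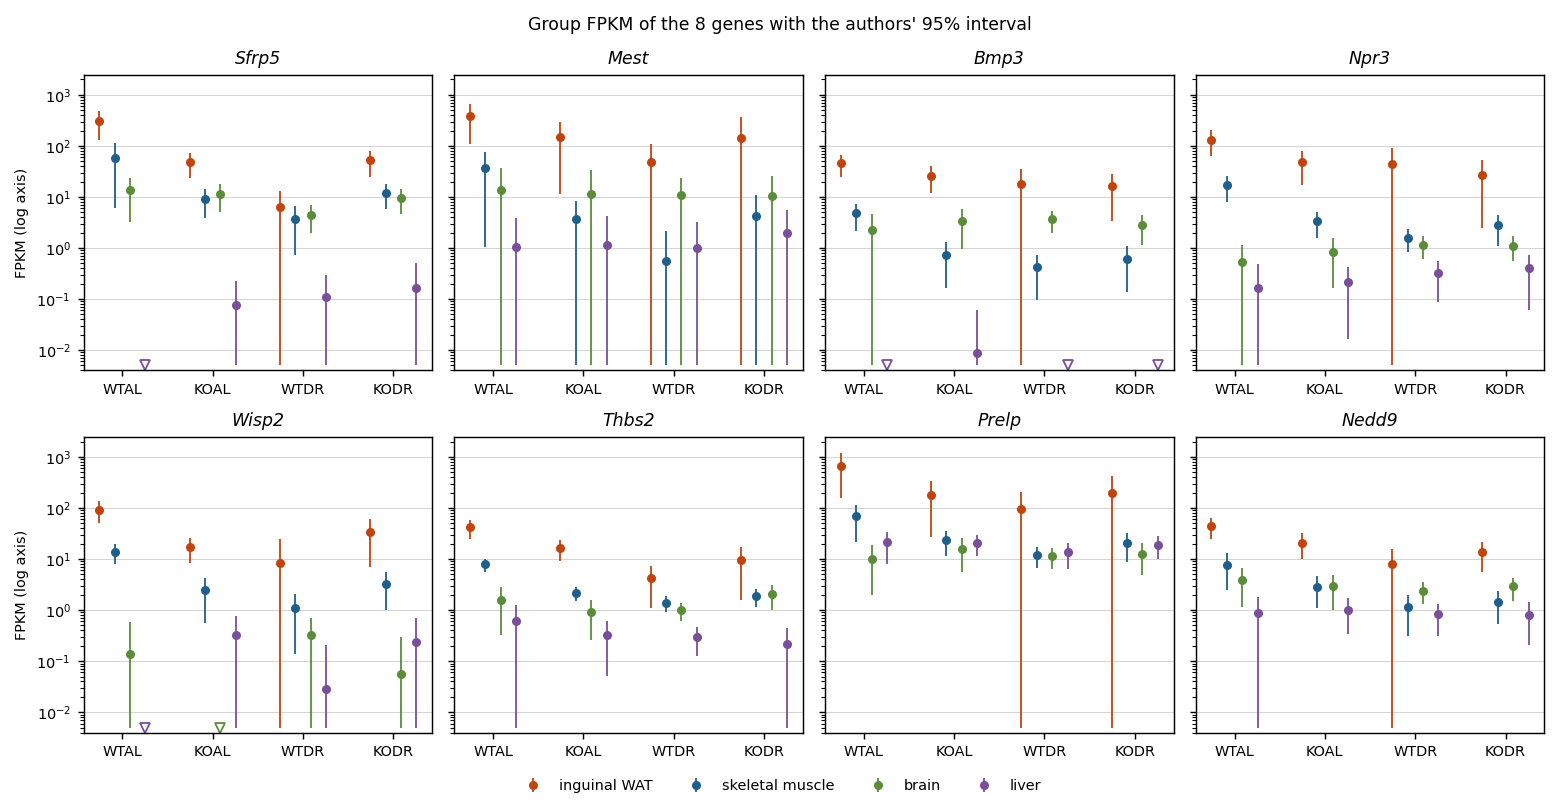
FPKM of each gene (log axis, 1 panel per gene) in the WTAL, KOAL, WTDR and KODR groups of inguinal WAT, skeletal muscle, brain and liver, with the authors' 95% interval as a bar that is cut at the foot of the axis where it reaches 0, and open triangles for a value of 0. In WAT and muscle the WTAL point is the highest of the 4 for each gene (Sfrp5 304.1 against 47.67, 6.26 and 52.11 in WAT), while in brain and liver no step of that size separates WTAL from the other groups for all 8 genes.

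In skeletal muscle WTAL was again the highest group, at lower levels than in WAT. Sfrp5 had 58.99 FPKM in WTAL, 9.213 in KOAL, 3.656 in WTDR and 11.72 in KODR, or 15.6%, 6.2% and 19.9% of WTAL in the last 3. Mest had 37.69, 3.66, 0.5634 and 4.285, and its WTDR level, 1.49% of WTAL, was the lowest share of the 8 genes, with an interval from 0 to 2.121. Npr3 had 17.06, 3.365, 1.573 and 2.805. WTAL was thus the highest group and WTDR the lowest for each of these, as for the other 5.

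Bmp3 was the least abundant in muscle, with 4.78 FPKM in WTAL and 0.7306, 0.4197 and 0.6194 in KOAL, WTDR and KODR, so that 3 of its groups were under 1. Wisp2 had 13.96, 2.458, 1.087 and 3.232 FPKM, and Thbs2 had 7.878, 2.191, 1.393 and 1.883. Prelp had 69.02, 23.24, 11.85 and 20.95, and Nedd9 had 7.772, 2.834, 1.155 and 1.444. The differences from WTAL were largest for Mest (-3.36, SE 1.17, in KOAL and -6.06, SE 2.11, in WTDR) and had the smallest error for Thbs2 (-1.85, SE 0.31, and -2.50, SE 0.31).

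The median over the 8 genes in muscle was -2.42 in KOAL, -3.47 in WTDR and -2.38 in KODR, beside -0.05, -0.06 and -0.04 for all tested entries. Intervals were apart from WTAL for 4, 6 and 5 of the 8 genes (0.298%, 0.653% and 0.420% of all entries were lower in this way). With a pseudocount of 1 the WTDR median became -2.63. Entries with longer transcripts had lower log2 differences in muscle. Spearman's rho between the length of the longest annotated transcript and the difference was -0.334 over 13297 entries for KOAL against WTAL and -0.315 over 13277 for WTDR, as a description across genes. The 2349 entries of 5000 bases and more had a median of -0.30 in WTDR and the 3535 entries under 1500 bases one of 0.31. The longest transcripts of the 8 genes ran from 1719 bases (Wisp2) to 6892 (Npr3), and the 3 over 5000 were Bmp3, Npr3 and Thbs2. The class from 1500 to under 3000 bases, which holds Sfrp5, Mest and Wisp2, had a median of -0.05 in WTDR. For KODR against WTAL in muscle rho was -0.382. In WAT it was 0.050, -0.133 and -0.235 for KOAL, WTDR and KODR against WTAL. In the same order it was -0.264, -0.231 and -0.292 in liver and -0.058, 0.012 and 0.137 in brain. The part of transcript length in the members' differences was not tested.

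**Figure D2:**
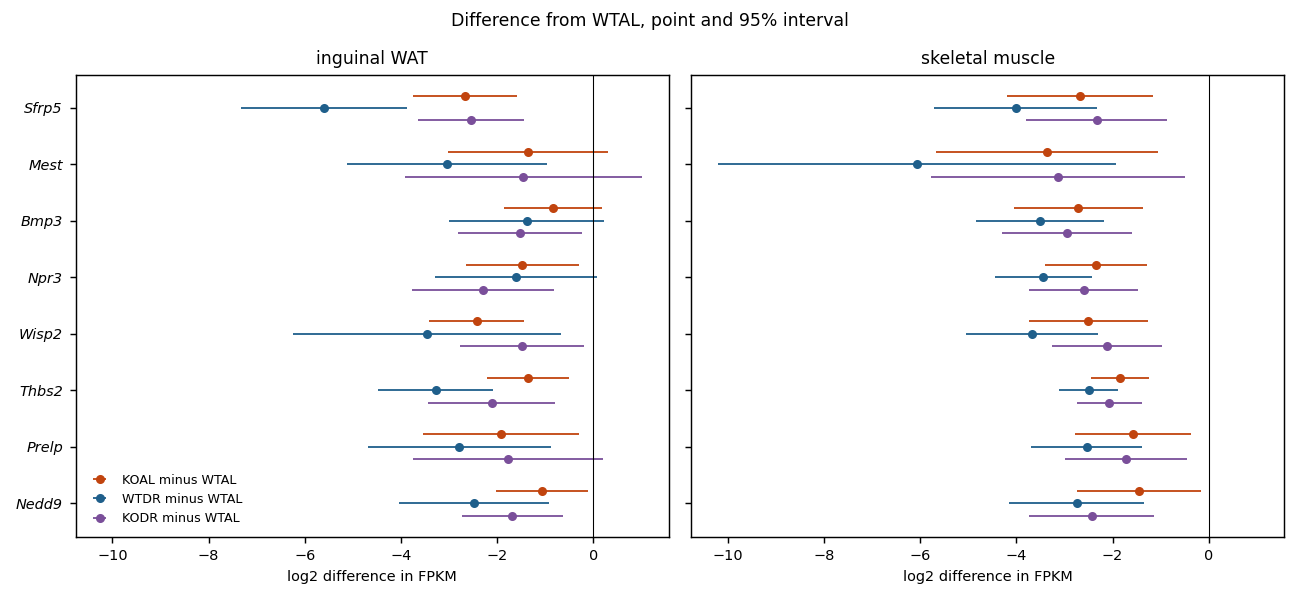
Log2 difference in FPKM from WTAL (x axis) for each gene in inguinal WAT and skeletal muscle, with points for KOAL, WTDR and KODR and bars for 95% intervals from the SE. All points lie left of 0, from -0.84 (Bmp3, KOAL, WAT) to -6.06 (Mest, WTDR, muscle), and intervals that cross 0 belong to Mest, Bmp3, Npr3 and Prelp in WAT.

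Under restriction, the 8 genes were mostly higher in KODR than in WTDR mice. In WAT 6 of 8 were higher, with a median of 1.08, and Bmp3 (-0.13, SE 0.94) and Npr3 (-0.68, SE 1.01) were lower. Sfrp5 had the largest difference (3.06, SE 0.87), and it was the one gene with intervals apart (0.310% of all entries were higher in this way). In muscle all 7 genes that passed the filter of 1 FPKM were higher, with a median of 0.83. Sfrp5 (1.68, SE 0.69) was the one of these whose 95% interval, 0.34 to 3.02, lay above 0, and the groups' own intervals overlapped for all of them (0.984% of all entries were higher with intervals apart). These values share the WTDR group with the comparison above.

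Between the KO groups the 8 genes differed less. KODR against KOAL gave a median of -0.35 in WAT, with 5 genes lower and 3 higher, and of -0.15 in muscle, with 4 lower and 3 higher. Sfrp5 was at 52.11 against 47.67 FPKM in WAT (0.13, SE 0.53) and at 11.72 against 9.213 in muscle (0.35, SE 0.56). Wisp2 in WAT had the highest value (0.95, SE 0.68), and Nedd9 in muscle the lowest (-0.97, SE 0.63). Every 95% interval of these differences held 0, and for Mest in WAT it ran from -2.69 to 2.51, so that differences of several fold either way could not be seen at this precision.

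The close relatives of the 8 genes did not all show the WTAL peak. Of the other SFRP genes, Sfrp2 had 22.43, 37.66, 18.43 and 32.28 FPKM in WAT of WTAL, KOAL, WTDR and KODR, and Sfrp4 had 10.09, 10.1, 6.433 and 21.8, where Sfrp5 ran from 304.1 down to 6.26. Decorin (Dcn), a proteoglycan like Prelp, had 404.7, 494.7, 440.9 and 511. Thbs1, the thrombospondin nearest to Thbs2, had 57.27, 23.84, 11.8 and 11.17 in WAT and 7.99, 2.888, 1.111 and 0.7485 in muscle, with its highest value in WTAL as for Thbs2. Npr1, the signalling receptor for the peptides that NPR3 clears, had 22.87, 20.31, 17.57 and 17.99 in WAT. It had 10.29, 6.432, 6.107 and 5.151 in muscle, so WTAL was its highest group in both tissues. Npr2 had 31.14, 26.43, 12.15 and 21.44 in WAT, also highest in WTAL. Bmp4, a BMP ligand of adipocyte precursors, had 9.006, 8.182, 10.42 and 8.428 there, and Bcar1, the founding Cas scaffold, had 13.48, 11.78, 12.17 and 15.73. Some other relatives were highest in WTAL in WAT. Bgn, a proteoglycan, had 202.9, 131.3, 90.84 and 123.1. Cyr61, a CCN gene, had 33.09, 14.98, 10.43 and 19.76, and Bmp6 had 11.79, 6.883, 6.224 and 6.822. Bmp2, Nov, Ogn and Aspn were highest in WTAL there as well, while Sfrp1, Ctgf, Thbs3, Gdf10, Lum and Fmod were not. In muscle Sfrp1 (2.857, 1.098, 0.5458 and 0.8296) and Sfrp2 (3.355, 1.062, 1.705 and 1.666) were highest in WTAL. Sfrp4 there was highest in WTDR, at 3.351.

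The wider pathways were followed with lists, each without the 8 genes. For KOAL against WTAL in WAT, 1.29% of all entries passed the false discovery rate (FDR) of 10% by Wald tests with Benjamini-Hochberg adjustment over all entries. Of the Wnt genes, 1 of 13 receptors (Fzd10, 0.01922 to 4.785 FPKM, 7.96, SE 1.84), 1 of 7 secreted inhibitors (Dkk3, 1.502 to 6.803, 2.18, SE 0.64) and 1 of 9 targets (Nkd2, 0.425 to 4.023, 3.24, SE 0.94) rose, and none of the 8 ligands tested passed. The list medians were -0.11, 0.96, 0.93 and 0.70 on the log2 scale in that order. No BMP ligand, receptor, inhibitor or target of the 8, 7, 9 and 8 tested passed, with medians between -0.29 and 0.16, nor did any of the 3 natriuretic peptide genes, 3 CCN genes, 2 thrombospondins and 8 Cas partners, with medians of -0.17, -0.63, -0.58 and -0.09. Of 11 small leucine-rich proteoglycans, Lum rose (20.95 to 32.7 FPKM, 0.64, SE 0.19), opposite in direction to Prelp.

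For WTDR against WTAL in WAT, where 0.570% of all entries passed, no gene of the Wnt, BMP, natriuretic peptide, CCN, thrombospondin or Cas lists was called. The median was -0.57 for 12 Wnt receptors, -0.87 for 6 BMP ligands and -0.90 for 3 CCN genes. It was lowest among these lists for the 2 thrombospondins tested, at -1.60 with both lower. The thrombospondin list summed to 75.48 FPKM in WTAL and 21.65 in WTDR. Lum (20.95 to 47.67 FPKM, 1.19, SE 0.21) and Podnl1 (0.7236 to 18.84, 4.70, SE 1.20), both small leucine-rich proteoglycans, rose while the list of 11 had a median of -0.01. In KODR against WTDR (0.283% of all entries), Wnt4 rose from 0.5381 to 12.46 FPKM (4.53, SE 0.83) and Lum fell (-0.76, SE 0.18). The epithelial markers were higher in the same comparison, at 125 against 26.15 FPKM in sum, with 7 of 7 higher and 1 called, and their part in the Wnt4 value was not tested.

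In muscle, 0.681% of all entries passed for KOAL against WTAL, and no gene of these pathway lists did. Medians ranged from -0.72 for 8 Wnt targets to 0.55 for 6 Wnt ligands. For WTDR against WTAL (1.40% of all entries), Dkk3 rose (3.621 to 13.68 FPKM, 1.92, SE 0.51), Nkd1, a Wnt feedback inhibitor, fell (1.203 to 0.1833, -2.71, SE 0.63) and Fmod, a proteoglycan of tendon, rose (4.238 to 19.09, 2.17, SE 0.63). In KODR against WTDR (2.23% of all entries), Dkk3 fell (-2.12, SE 0.50), Lum fell (-0.76, SE 0.13) and Id1, a BMP target, rose (9.666 to 34.79, 1.85, SE 0.59).

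The cell type markers differed from one another in their order of groups. In WAT the summed adipocyte markers were 40610 FPKM in WTAL, 26149 in KOAL, 53498 in WTDR and 32820 in KODR, so their highest group was the one in which 6 of the 8 genes were lowest. Their median difference from WTAL was -0.63 in KOAL (12 of 14 lower) and 0.37 in WTDR (11 of 14 higher), with none called in either. Stromal and fibroblast markers summed to 885.9, 888, 790.6 and 832.2, of which Dcn gave 404.7, 494.7, 440.9 and 511. Their median differences from WTAL were -0.19 in KOAL, -0.52 in WTDR and -0.58 in KODR. Of the 11 markers 8, 8 and 10 were lower, and none was called. Macrophage markers summed to 971.4, 513.7, 356.8 and 455.6, with all 7 lower in KOAL and WTDR and none called, at medians of -0.93 and -1.44. Endothelial markers summed to 631.3, 409.1, 389.2 and 312.5, with 7 and 8 of 8 lower, medians of -0.59 and -0.85 and none called. The order of the macrophage sums, WTAL, KOAL, KODR and WTDR, was that of Mest, Thbs2 and Nedd9 in WAT. In WAT the macrophage and endothelial markers thus had their highest sum in WTAL as the 8 genes did. The part of these and of the stromal markers in the members' differences was not tested.

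The adipocyte markers of muscle summed to 5552, 7026, 4518 and 9144 FPKM. Against WTAL their median was 0.31 in KOAL (8 of 14 higher, none called), where the 8 genes had a median of -2.42. In WTDR it was -1.30, with 12 of 14 lower and Cebpa, a transcription factor of adipocytes, called (27.52 to 12.31 FPKM, -1.16, SE 0.27). In KODR against WTDR all 13 tested markers were higher and 7 were called, among them Adipoq (62.89 to 326 FPKM, 2.37, SE 0.68), Plin1 (17.02 to 134.4, 2.98, SE 0.57) and Cfd (233 to 1341, 2.53, SE 0.53). The 8 genes in that comparison had a median of 0.83, and the part of the adipocyte markers in it was not tested. Macrophage markers of muscle summed to 135.3, 158.5, 97.16 and 66.13 in WTAL, KOAL, WTDR and KODR, highest in KOAL. Endothelial markers there summed to 100.6, 104.2, 68.41 and 112.9, highest in KODR. Against WTAL the 2 lists had medians of 0.26 and 0.01 in KOAL and of -0.40 and -0.53 in WTDR, and their part was not tested. The hepatocyte markers of muscle were at 2637 FPKM in WTDR, the group where the 8 genes were lowest, and red blood cell markers at 949.8, 11582, 1553 and 20283 in WTAL, KOAL, WTDR and KODR, whose part was not tested either.

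**Figure D3:**
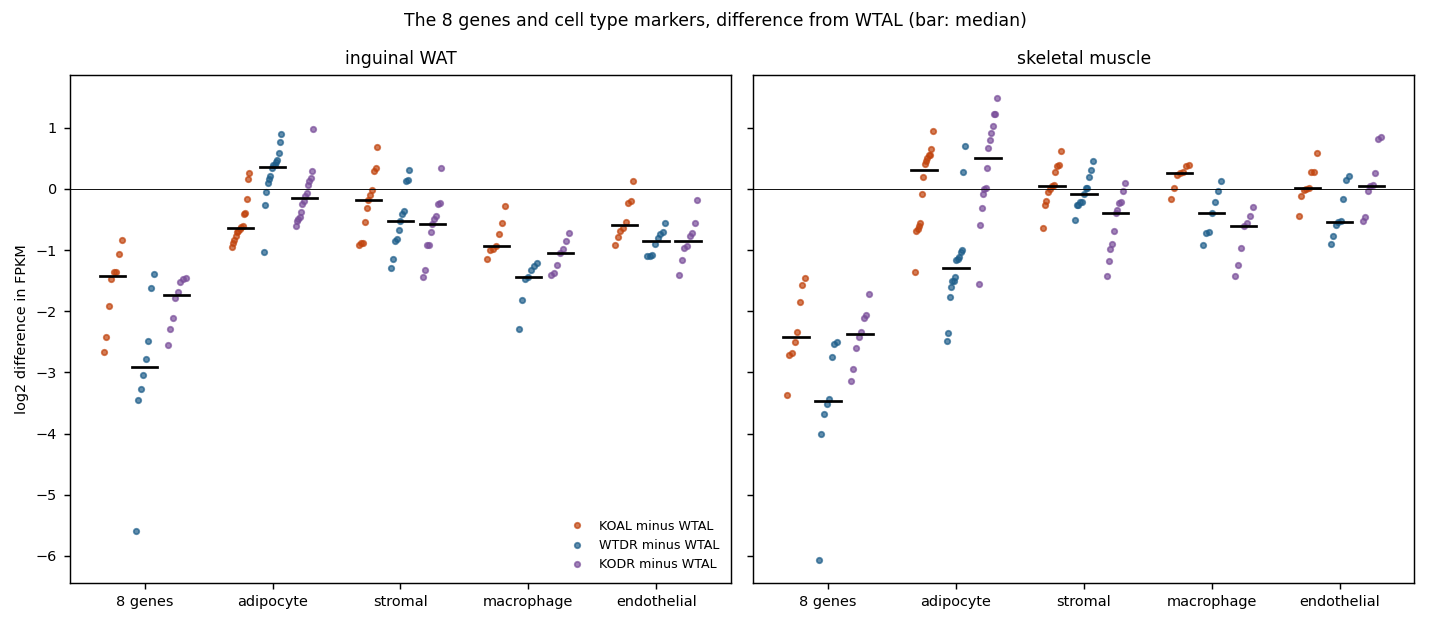
Log2 difference in FPKM from WTAL (y axis) of the 8 genes and of adipocyte, stromal, macrophage and endothelial markers in inguinal WAT and skeletal muscle, with 1 point per gene, a bar at the median and colours for KOAL, WTDR and KODR. The 8 genes have medians from -1.42 to -3.47, and the adipocyte markers from -1.30 to 0.37 in KOAL and WTDR. Over all groups and both tissues the stromal medians run from -0.58 to 0.05, the macrophage ones from -1.44 to 0.26 and the endothelial ones from -0.85 to 0.05.

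The muscle level of the 8 genes was a small share of their WAT level, with a median of 13.9% in WTAL, 13.2% in KOAL, 12.4% in WTDR and 10.4% in KODR. The 14 adipocyte markers gave 10.8%, 21.4%, 3.83% and 17.6%. Sfrp5 stood at 19.4%, 19.3%, 58.4% and 22.5%, the high WTDR share resting on a WAT value of 6.26 whose interval reached 0. Mest ran from 9.63% in WTAL down to 1.18% in WTDR. The median adipocyte share thus ranged more widely across groups than the median share of the 8 genes. Single genes differed both ways between WTAL and WTDR. Bmp3 stood at 10.4% and 2.39% and Npr3 at 12.8% and 3.61%, lower in WTDR like Mest. Thbs2 stood at 18.9% and 32.5%, higher in WTDR like Sfrp5. Wisp2, Prelp and Nedd9 differed less.

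Brain is not among the tissues named in the choice of genes. The authors, however, reported Sfrp5 as lower in WTDR than in WTAL in brain, muscle and WAT, by Cuffdiff at an FDR of 10%. The brain tests of Sfrp5 are therefore not independent of earlier results, and the Wald test used here is another test than Cuffdiff's. Tests covered 4 comparisons (KOAL and WTDR against WTAL, and KODR against WTDR and KOAL). None of 27 tests of the 8 genes passed the FDR of 10%, and 3 passed before adjustment. All entries passed at 0.203%, 0.224%, 1.16% and 0.365% in these comparisons. Sfrp5 had 13.55, 11.52, 4.399 and 9.451 FPKM in WTAL, KOAL, WTDR and KODR. It was thus lowest in WTDR, with a difference from WTAL of -1.62 (SE 0.68, 95% interval -2.96 to -0.28), and KODR stood 1.10 above WTDR (SE 0.54, 95% interval 0.04 to 2.16). Thbs2 had 1.582, 0.9242, 0.9958 and 2.048 FPKM, and KODR was above WTDR by 1.04 (SE 0.46, 95% interval 0.15 to 1.93). Those 3 differences were the ones with an unadjusted p under 0.05. With each SD divided by the square root of the number of labelled libraries, 4 of the 27 passed, 2 of Sfrp5 and 2 of Thbs2. All brain entries then passed at 1.41%, 1.73%, 18.5% and 4.33%, and 2 of the 4 were in KODR against WTDR, the comparison with 18.5%.

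Choroid plexus markers, from the epithelium that secretes cerebrospinal fluid, were also lower in WTDR than in KODR brain. Their sum was 183.6, 66.47, 63.04 and 319.7 FPKM in WTAL, KOAL, WTDR and KODR, all 8 were higher in KODR than in WTDR with a median of 1.67, and Kl was called (1.941 to 6.912 FPKM, 1.83, SE 0.52). Against WTAL the median marker differed by -1.07 in WTDR, with 6 of 7 lower, beside Sfrp5 at -1.62. In KOAL it differed by -0.17, with 5 of 8 lower, beside Sfrp5 at -0.23. Ttr, 1 of the 8, is also on the hepatocyte list. Of the 14 adipocyte markers, 5 (Adipoq, Plin1, Cidec, Fabp4 and Cfd) were under 1 FPKM in all 4 brain groups. The others reached 1 FPKM in at least 1 brain group. All 14 together summed to 64.76, 81.46, 49.74 and 78.79 FPKM in WTAL, KOAL, WTDR and KODR. The part of the choroid plexus in the Sfrp5 values was not tested.

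No test of the other genes in brain passed either. Mest had 13.86, 11.59, 10.7 and 10.31 FPKM in WTAL, KOAL, WTDR and KODR, and Prelp had 10.26, 15.91, 11.44 and 12.73, with WTAL its lowest group. Bmp3 had 2.285, 3.41, 3.632 and 2.805, again with WTAL lowest, and Nedd9 had 3.934, 2.909, 2.414 and 2.922. Npr3 had 0.538, 0.8496, 1.146 and 1.116, and its WTDR level was above WTAL by 1.09 (SE 0.85, 95% interval -0.58 to 2.76), a difference as large as that of Thbs2 between KODR and WTDR but with a wider error. Npr3 in KOAL against WTAL, and Wisp2 (0 to 0.3273 FPKM) in all comparisons, did not reach the 1 FPKM that a test needed. The 95% interval of the WTDR difference from WTAL ran from -1.15 to 1.47 for Prelp, -1.89 to 0.48 for Nedd9 and -3.31 to 2.56 for Mest. Of these 3 intervals, that of Mest also held the WTDR median of the 8 genes in WAT (-2.91), and so did that of Sfrp5. The diet effect in KO less that in WT passed for 0 of 7 genes (0.396% of all entries), and Thbs2 had the largest value (1.82, SE 0.90).

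Liver held little of these genes apart from Prelp. Prelp had 21.17, 20.23, 13.54 and 19.32 FPKM in WTAL, KOAL, WTDR and KODR. Mest had 1.051, 1.138, 1.009 and 2.007, and Nedd9 had 0.8943, 1.017, 0.8269 and 0.8124. Sfrp5 lay between 0 and 0.1633, Npr3 between 0.1631 and 0.3968, Thbs2 between 0.2168 and 0.6235 and Wisp2 between 0 and 0.3268, and Bmp3 was listed at 0 in 3 of 4 groups. None of 10 tests of Prelp, Mest and Nedd9 passed and none had an unadjusted p under 0.05, where 0.316%, 0.236%, 0.288% and 0.611% of all entries passed in the same 4 comparisons as in brain. Prelp in WTDR was below WTAL by a log2 difference of -0.65 (SE 0.59, 95% interval -1.80 to 0.51). The diet by genotype difference passed for 0 of 3 genes (0.0860% of all entries).

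In the KODR groups, with 3 labelled libraries per tissue, the 8 genes were set against the other tissues as a description of where they are expressed. The median log2 difference of WAT from muscle was 3.26 over 8 genes, from brain 3.15 over 8 and from liver 6.10 over 7. All 23 differences were called higher in WAT, where 11.1%, 13.0% and 9.47% of all entries were. The genes were picked as fat genes from WAT and muscle values that include these, which largely fixed that count, and nothing is read from it. Mest was 33.3 times as high in WAT as in muscle (5.06, SE 1.62), Bmp3 25.9 times (4.69, SE 0.80), and Sfrp5 4.45 times (2.15, SE 0.53), the smallest ratio of the 8. Sfrp5 in WAT was 5.51 times its brain level (2.46, SE 0.53) and 319 times its liver level (8.32, SE 1.54), the latter against 0.1633 FPKM. Prelp showed the least contrast with liver at 10.2 times (3.35, SE 0.91). Mest against brain, at 13.8 times (3.79, SE 1.60), was the one call that did not pass an FDR of 5%. With a t distribution in place of the normal one, 0 of the 23 were called (0.119%, 0.0432% and 0.0525% of all entries in either direction), and with the authors' intervals required to be apart 13 were (9.97%, 21.4% and 13.0%).

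**Figure D4:**
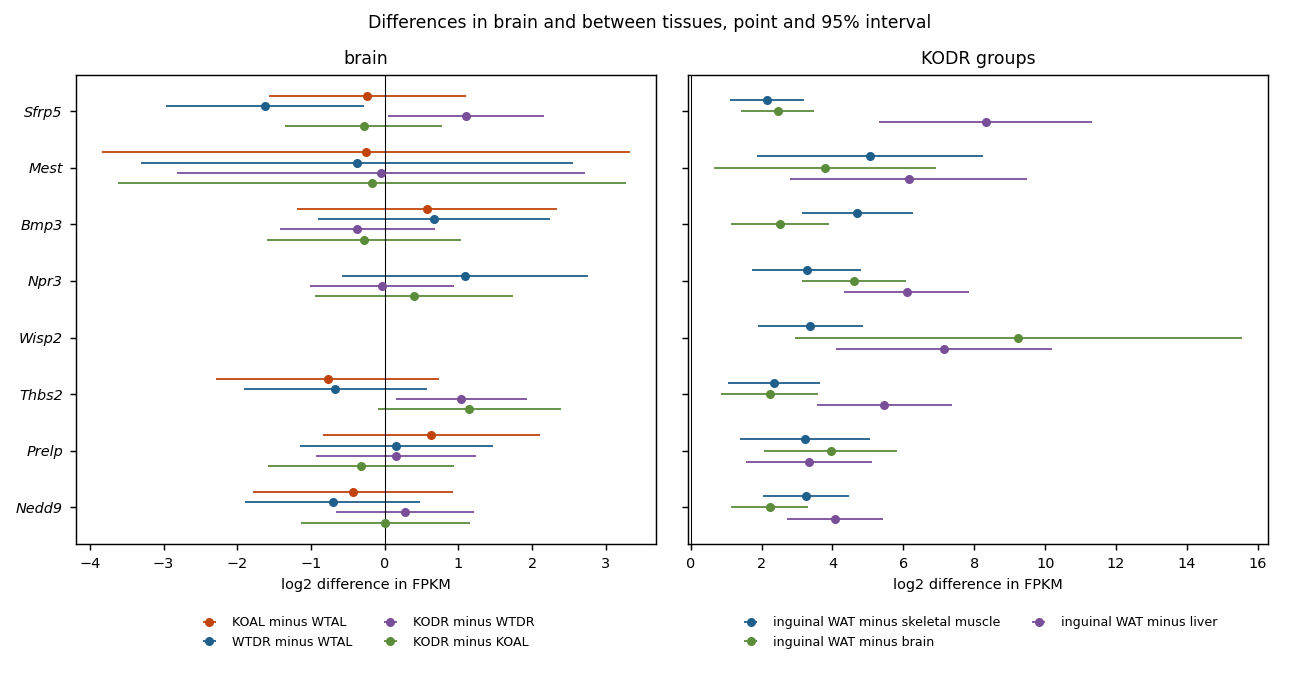
Log2 differences in FPKM (x axis) with 95% intervals, tested in brain between groups (left, 4 comparisons) and described between inguinal WAT and the other tissues in KODR mice (right). Most brain intervals hold 0, with Sfrp5 at -1.62 in WTDR as the point farthest left, while all 23 tissue differences lie right of 0, from 2.15 to 9.24.

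Ordering all 16 groups by level, Sfrp5 was highest in WAT of WTAL (304.1 FPKM), then muscle of WTAL (58.99), WAT of KODR (52.11) and WAT of KOAL (47.67). The first step was larger than the intervals, and the next 3 overlapped one another. WAT of WTDR (6.26) lay below the 3 higher brain groups (13.55, 11.52 and 9.451), and the 4 liver groups closed the order. For Thbs2 the step from WAT of WTAL (41.63) to WAT of KOAL (16.25) was beyond the intervals, while for the other 6 genes the highest 2 groups overlapped. Prelp had 10.26 to 23.24 FPKM in all groups but the WAT groups and muscle of WTAL, where it had 69.02 in that muscle group.

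Genes whose pattern was most like that of a member were found by Pearson's r of log2(FPKM + 1), centred on each tissue, over the 8 WAT and muscle groups and 13495 entries. For Sfrp5 these were 5430416O09Rik (0.99), Nucb2 (0.99), Mycbp2 (0.98), Smad7 (0.98) and Atg3 (0.98). Their ranges were narrower, with Nucb2 from 12.98 FPKM in WAT of WTAL to 5.396 in WTDR. For the others they were Pnp (Mest), Zfyve16 (Bmp3), Cped1 (Npr3), Pdk3 (Wisp2), Gltp (Thbs2), Sptbn1 (Prelp) and Myo9b (Nedd9), with r of 0.98 to 1.00. Among the 8 themselves r was 0.77 to 0.98 over 28 pairs, with a median of 0.91. The points are 8 group values that share libraries within a group, and the genes were chosen to be high in WTAL, so these values only describe the likeness.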

How the data were processed

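Brain, liver, skeletal muscle and inguinal WAT of WT and Irs1-/- mice on AL or DR were sequenced by the authors, who trimmed reads with cutadapt 1.5, aligned them to GRCm38 and ran Cuffdiff 2.2.1. The deposited FPKM values, with their 95% intervals, are group values from pooled libraries, so that no value per library was used and the depth per library is unknown. Precision is that of the intervals, and the median SD over groups was 27.2% to 62.3% of the FPKM. The table has 42349 entries, of which 873 join several genes.

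The SD was taken as the upper bound less the FPKM, divided by 2. Log2 differences were tested by two-sided Wald tests with a delta method SE, a normal reference and Benjamini-Hochberg adjustment over all entries tested in a tissue and comparison. Entries were tested where Cuffdiff gave the status OK, neither group was at 0 and 1 FPKM was reached in at least one of them, and calls used an FDR of 10%. Whether the interval describes a mean or 1 library is not given in the sources used here. The p-values measure the spread that the intervals hold. The authors estimated the dispersion among the replicates of each group, and how far it enters the intervals is not given. On simulated tables the test kept its error rate with log-normal error and made more false calls than the FDR allows with gamma or normal error. The simulated error was drawn from the same SD that the test uses. The log-normal result was therefore fixed in advance and says nothing about the error in the real values. Groups come from the labels. The 8 genes and all lists were chosen with earlier results of these data known. The rule for named genes took the 8 genes, Irs1, list genes that passed the FDR (up to 4 per list and comparison), close relatives and the entries most alike in pattern, and the relatives were picked after their values were seen, as were the length classes. As alternatives, the FDR was set to 5%, the filter was dropped or raised to 5 FPKM, a pseudocount of 0.1 or 1 was added, differences were centred, joined entries were left out, and intervals apart, a t distribution or a smaller SD replaced the test. With 2 or 3 libraries per group and no value per library, no exact test could be run, so effects, errors and calls are given and p-values of single genes are not. Symbols were matched to the GRCm38 annotation and to RefSeq. Python 3.11.15, numpy 2.4.6, pandas 2.3.3, scipy 1.17.1 and matplotlib 3.10.9 were used.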

Additional observations from a re-analysis of the deposited data

How the results depend on the processing

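No paired analysis was possible because the table holds 1 pooled value per group, and for the same reason no replicate could be left out. Of the 89 values recomputed for the counts and medians, 84 stayed close to the reported value, and 1 of those changed sign. This was the KODR against KOAL median in muscle, -0.15, which was 0.10 over the 2 genes left by a filter of 5 FPKM. Close meant an equal or similar count, or a median that moved by less than the median SE of the genes. That SE was 0.53 to 0.98 in WAT and muscle, so the rule was wide. Some values could not change, since all 8 genes passed each filter in WAT. With each SD divided by the square root of the number of labelled libraries, 4 tests in brain passed instead of 0 (2 of Sfrp5 and 2 of Thbs2), and so did 1 diet by genotype difference instead of 0, that of Thbs2 in brain. Beside these, 18.5% of all brain entries passed in KODR against WTDR and 5.15% for diet by genotype. The construction of this alternative narrows every error. The 23 WAT calls in KODR mice became 13 where intervals had to be apart and 0 with a t distribution, under which at most 0.119% of all entries were called in any of the 3 contrasts, against 9.97% to 21.4% with intervals apart. The WTDR median in muscle moved from -3.47 to -2.63 with a pseudocount of 1, which pulls low values together. Of single genes, 3 differences that were not called changed sign, all on centring (Prelp and Nedd9 in brain, Mest in liver), and no called difference did. Interval width limited Mest, whose SD was 36.3% to 138% of its FPKM in WAT and muscle. Sfrp5, Bmp3, Npr3, Wisp2 and Thbs2 were under 1 FPKM in liver and untested there. Without that filter 24 liver tests could be made and 0 passed.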
